A study of Mus musculus with 7 samples.

Results

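The genes described here encode the channels and pumps that move calcium and sodium across the membranes of the β-cell. They were all gene symbols of the array that matched the naming patterns of the voltage-gated calcium channel subunits (Cacna, Cacnb and Cacng), the sodium channel subunits (Scn), the transient receptor potential (TRP) channels, the calcium release channels of the endoplasmic reticulum (Ryr and Itpr) and the calcium pumps (Atp2a, Atp2b and Atp2c). The patterns took 66 of the 19498 symbols measured, each with 1 transcript cluster, the array's unit for a gene. No expression value chose them. They fell into 10 pore-forming, 4 α2δ, 3 β and 8 γ subunits of calcium channels, 7 pore-forming and 3 β subunits of sodium channels, 20 TRP channels, 2 ryanodine receptors, 1 IP3 receptor and 8 pumps. Other symbols of these families were not analysed here.

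When glucose closes potassium channels, the β-cell depolarises, sodium and calcium channels open, and the calcium that enters drives insulin granules to fuse with the plasma membrane. The pore-forming subunits carry the current, while the α2δ and β subunits bring the pore to the membrane and tune its gating. TRP channels add background depolarising currents, ryanodine and IP3 receptors release calcium from the endoplasmic reticulum, and the pumps return calcium to the endoplasmic reticulum (SERCA), the Golgi (SPCA) or the outside of the cell (PMCA).

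The comparison asked which transcripts of islet β-cells change at 2 weeks of age when mTOR complex 1 lacks its scaffold protein Raptor. Sorted GFP+ cells came from wild type mice (WT; Raptor+/+, RIP-Cre, Rosa26GFP; 3 arrays) and from Raptor knockout mice (KO; Raptor-/- by Cre on floxed alleles, RIP-Cre, Rosa26GFP; 4 arrays). Both groups thus carried Cre recombinase under the rat insulin promoter and the green reporter that this Cre switches on, the strain was labelled C57BL/6, the methods describe male animals, and each array held RNA pooled from several mice of a genotype. The reporter marks any cell in which the insulin promoter has driven Cre, and floxed animals without Cre were not part of these groups.

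Signals are quantile-normalized log2 values. A difference is the KO mean less the WT mean on that scale, the error of a difference is its SE in limma, and other errors are SD (n = 3 WT and n = 4 KO arrays). The mean signal of 11 β-cell marker genes was 14.52 to 14.83 in WT and 13.51 to 14.80 in KO, with the insulin gene Ins2 at the upper limit of the array on all 7 arrays, and the α-cell hormone gene Gcg stood at that limit on all 7 as well. Of the 11 β-cell genes, 8 were below WT (median difference -0.49). An unadjusted p below 0.05 in limma was found for 2, against 2.18% of all clusters. They were Slc2a2 (-1.94 ± 0.48, unadjusted p = 0.00416 in limma) and Slc30a8 (-0.96 ± 0.38, unadjusted p = 0.0359 in limma). The mean of 12 acinar genes ran from 7.74 to 15.35 in WT and from 9.21 to 16.45 in KO, so exocrine signal differed between arrays within both groups. The mean of 6 δ-, PP- and ε-cell genes was 10.23 to 12.20 in WT and 11.39 to 12.98 in KO. Of these, 5 were above WT (median difference over the list 0.85) and 0 had an unadjusted p below 0.05 in limma. With the replicate block 3 (Hhex, Rbp4 and Ghrl) had one, all higher in KO, against 2.61% of all clusters. Also below 0.05 with the block, and lower in KO, were the acinar genes Cpa1 and Prss2 and the β-cell gene Slc2a2. The same held for Ptprc of 6 immune genes and Emcn of 7 endothelial genes, but other genes of both lists went the other way. With the block, Adgre1 (0.42), Csf1r (0.29), Itgam (0.37) and Cd79a (0.34) were higher in KO, and Cd3e (-0.17) was lower. Of the endothelial genes, Pecam1 (0.19), Kdr (0.61), Tek (0.13) and Esam (0.01) were higher, and Cdh5 (-0.38) and Plvap (-0.02) were lower. The part of cells other than β-cells in the results below was not tested. Rptor itself was 5.98, 5.26 and 6.08 in WT and 5.99, 5.96, 4.40 and 8.54 in KO, which did not check the labels because no source used here says where its probes lie relative to the deletion. Over all transcript clusters, the third WT array and KO replicates 3 and 4 correlated less well with the rest (median r of 0.924 to 0.937) than the other 4 arrays did (0.954 to 0.961). The mean signal of 3 Y-linked genes was 4.42 on WT replicate 3 and 4.52 on KO replicate 4, against 7.49 to 8.89 elsewhere. These low values sit ill with the male animals that the methods describe, and the sex of the pooled mice was not tested. In pooled bulk RNA, fewer cells of a type and less RNA per cell cannot be told apart.

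Of the 66 genes, 1 had an unadjusted p below 0.05 in limma, the γ subunit gene Cacng7, set against 2.18% of the 22198 transcript clusters tested. It was lower in KO, where the background was 1.17%, and 0 genes were higher, where the background was 1.01%. No gene passed Benjamini-Hochberg adjustment over all transcript clusters, where the background was 0%, and the smallest adjusted p was 1. With the methods' t-test, 4 of the 66 had an unadjusted p below 0.05, against 2.41% of all clusters, and 0 passed adjustment. The KO mean was above WT for 30 genes and below for 36, against 50.4% above over all clusters. The median difference was -0.04, against 0.00 over all clusters, and the median size of the difference regardless of sign was 0.168, against 0.224. A difference of more than 1.5-fold was found for 6 genes, against 14.1% of all clusters. These sizes were not matched for signal, and the 66 genes were dimmer, with a median signal of 4.70 against 5.60. Below the median signal of the array the median size was 0.149, against 0.173 for all clusters there. At or above it the size was 0.333 against 0.303, and above the 75th percentile 0.470 against 0.365.

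**Figure D1:**
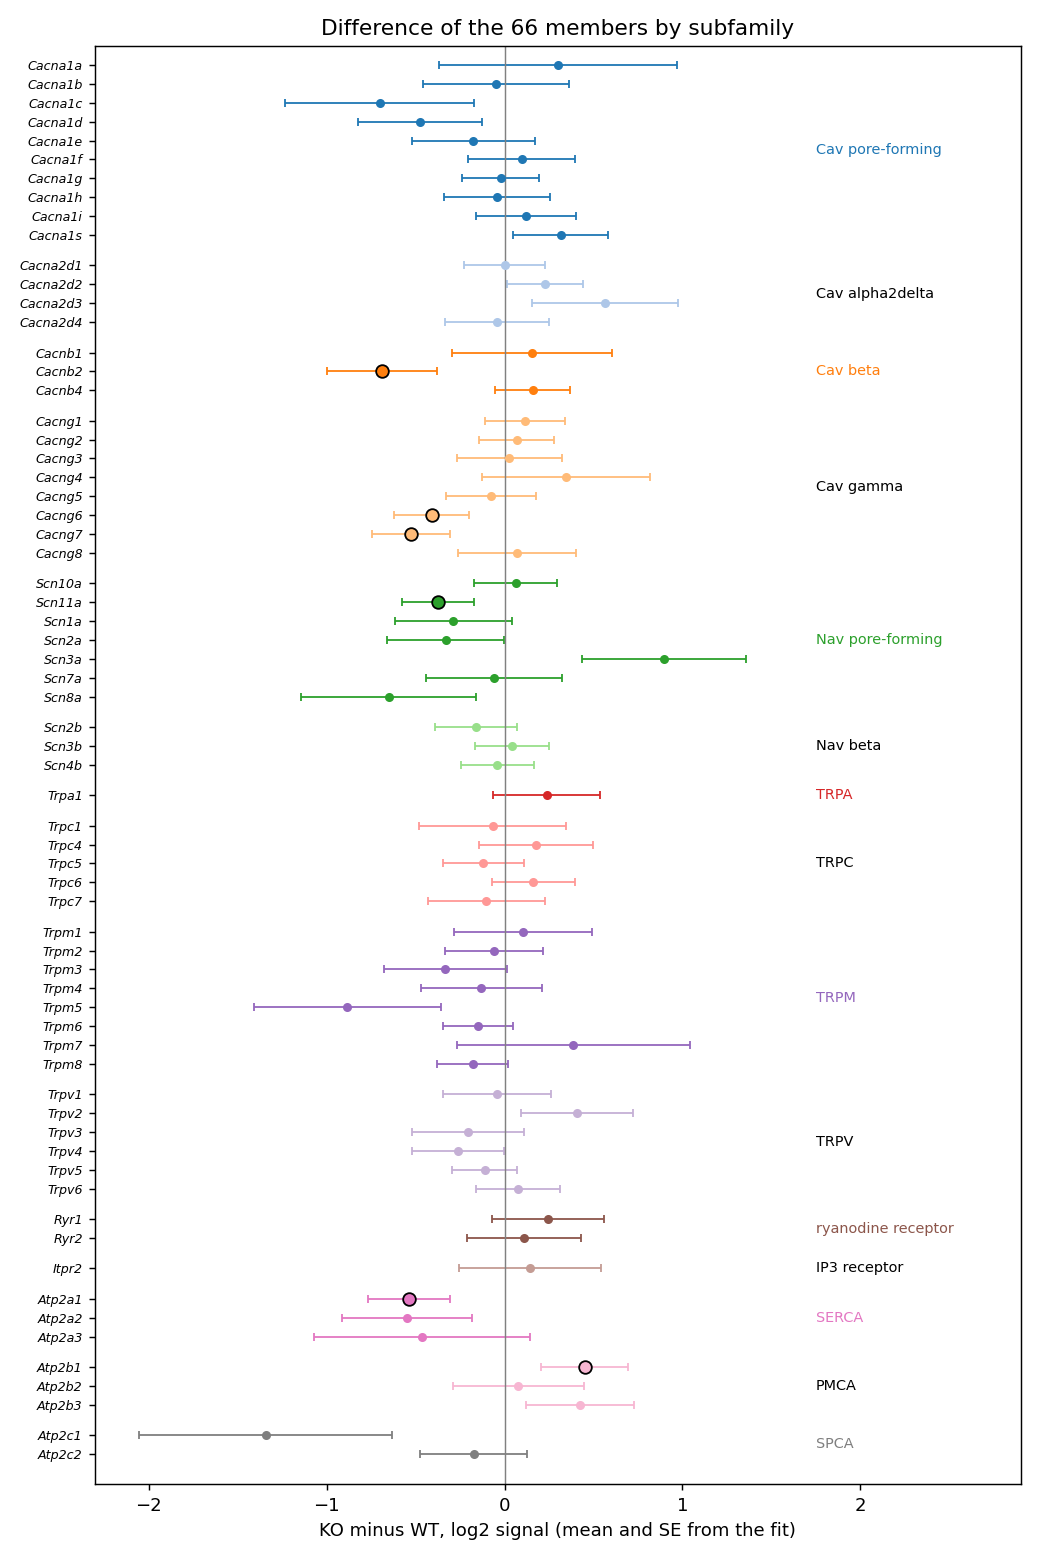
Difference between KO and WT for each of the 66 genes, grouped by subfamily. The x axis gives KO minus WT in log2 units, bars are the SE in limma, and large points with a black edge mark the 6 genes whose KO and WT arrays did not overlap; the differences ran from -1.34 (Atp2c1) to 0.90 (Scn3a).

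KO and WT arrays did not overlap for 6 of the 66 genes, against 3.93% of all clusters. All 4 KO arrays were below all 3 WT arrays for Cacnb2, Cacng6, Cacng7, Scn11a and Atp2a1, against a background of 1.95%, and above them for Atp2b1, against 1.98%. With the deposited values the number was 3 (Cacng7, Atp2a1 and Cacna1d), against 3.20% of all clusters. With median centring it was 3 (Cacng6, Cacng7 and Atp2a1), against 3.59%. Cacnb2, Scn11a and Atp2b1 thus overlapped under both scalings. With cyclic loess the same 6 genes as in the main setting did not overlap, against 4.09%. Of these 6, Cacnb2 and Atp2b1 had a mean signal above the 75th percentile of the array. Cacng7 lay at percentile 7.71, Scn11a at 9.07, Atp2a1 at 26.4 and Cacng6 at 35.7. The brightness of a probe set does not rank genes by transcript number, and detection calls were not used here. Where groups do not overlap, the split by genotype is always the most extreme in its direction in the permutation test. The permutation p-values given below for these 6 genes thus add no separate support.

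**Figure D2:**
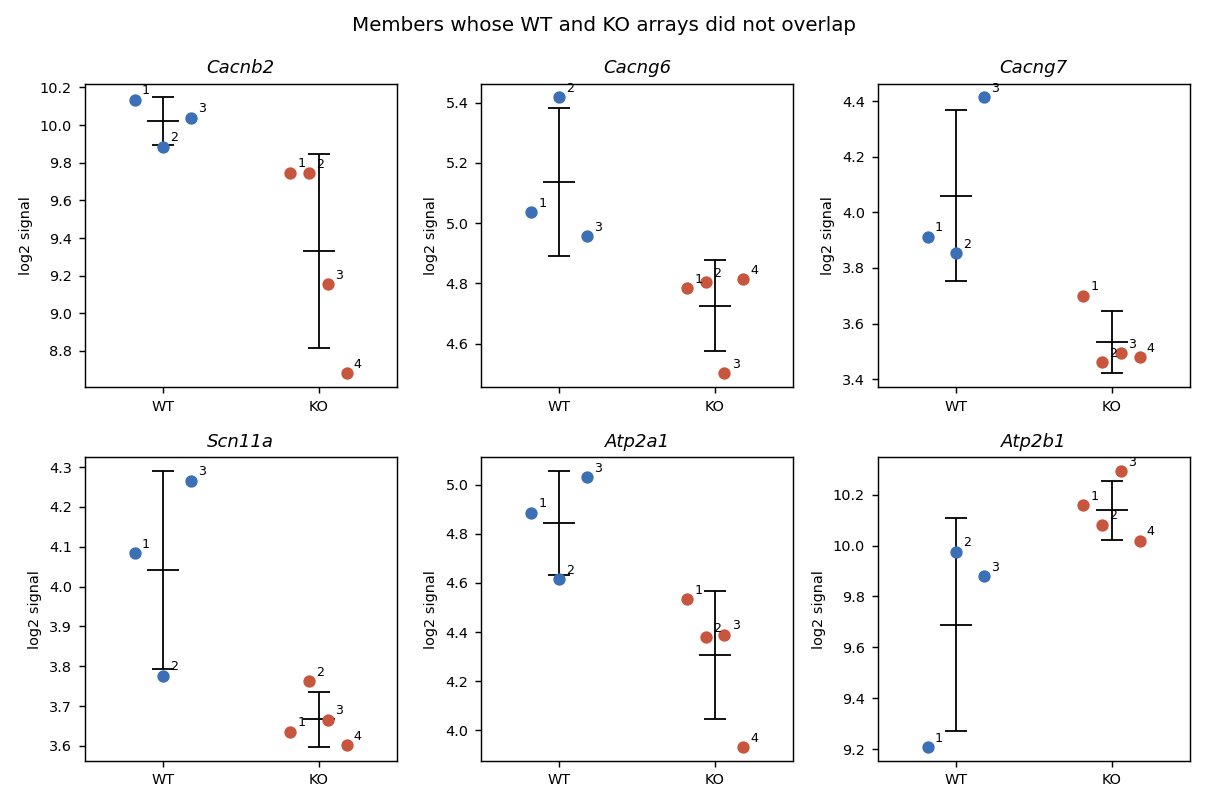
Log2 signal on each array for the 6 genes whose KO and WT arrays did not overlap. Points are arrays numbered by replicate, and bars give the mean and SD of 3 WT and 4 KO arrays; Atp2b1 is the one gene of the 6 with KO above WT, and the gap between groups ran from 0.013 (Scn11a) to 0.153 (Cacng7).

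The promoters of 53 of the 66 genes were found in the RefSeq table (build GRCm38.p6), as 71 windows that run from 250 bases before to 50 bases after a transcription start. The 4 windows below belong to 3 of the genes without overlap and show how unlike their promoters are. The plus strand is read 5′ to 3′, with the GC box GGGCGG, in either orientation, in capitals. Cacnb2 has a window at chr2:14604056-14604355 with 35 CpG dinucleotides and 71.7% G or C, and a second at chr2:14823842-14824141 with 4 CpG and 44.0% G or C. The Atp2b1 window at chr10:98914392-98914691 holds 54 CpG, 79.3% G or C and 4 GC boxes, and the Cacng7 window at chr7:3332575-3332874 holds 15 CpG, 62.0% G or C and 1 box.
Cacnb2, first start: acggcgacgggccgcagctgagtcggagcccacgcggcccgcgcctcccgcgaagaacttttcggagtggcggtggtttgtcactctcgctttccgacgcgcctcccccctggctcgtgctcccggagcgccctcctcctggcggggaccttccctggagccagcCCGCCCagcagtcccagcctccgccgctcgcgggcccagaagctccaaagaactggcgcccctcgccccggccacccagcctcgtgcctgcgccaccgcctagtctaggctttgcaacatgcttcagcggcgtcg
Cacnb2, second start: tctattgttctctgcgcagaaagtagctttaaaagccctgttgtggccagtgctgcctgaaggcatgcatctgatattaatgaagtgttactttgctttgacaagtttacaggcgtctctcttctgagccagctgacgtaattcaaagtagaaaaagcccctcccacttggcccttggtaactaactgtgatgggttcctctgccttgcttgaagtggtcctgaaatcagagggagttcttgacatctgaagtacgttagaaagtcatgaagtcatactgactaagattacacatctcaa
Atp2b1, first start: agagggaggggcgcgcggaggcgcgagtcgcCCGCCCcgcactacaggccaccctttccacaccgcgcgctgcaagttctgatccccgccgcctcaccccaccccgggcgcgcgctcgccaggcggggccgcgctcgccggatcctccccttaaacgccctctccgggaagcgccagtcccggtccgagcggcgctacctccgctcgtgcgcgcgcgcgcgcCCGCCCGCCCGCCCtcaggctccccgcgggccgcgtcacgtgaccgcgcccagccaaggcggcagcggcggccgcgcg
Cacng7: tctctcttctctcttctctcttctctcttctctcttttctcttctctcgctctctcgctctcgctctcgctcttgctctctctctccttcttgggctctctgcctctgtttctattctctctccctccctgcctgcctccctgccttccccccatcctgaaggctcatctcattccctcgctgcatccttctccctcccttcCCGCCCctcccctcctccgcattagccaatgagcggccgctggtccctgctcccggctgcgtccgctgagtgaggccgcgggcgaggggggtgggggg

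Over the 71 windows, 27 (38.0%) held GGGCGG in either orientation, against 35.7% of all 32851 windows in the table. The TATA box TATAAA was found in 9.86%, against 13.6%, the cAMP response element TGACGTCA in 0%, against 1.79%, and the forkhead core GTAAACA in 1 window, against 3.65%, with both strands searched in each case. The median number of CpG dinucleotides was 9, against 7. These matches describe the letters of the windows, and which start the array's probes follow was not examined.

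Cacnb2 encodes a cytoplasmic β subunit that binds the pore of L-type and other high-voltage-activated channels. Its signal was 10.14, 9.88 and 10.04 in WT and 9.75, 9.74, 9.15 and 8.68 in KO. The WT arrays lay close together, KO replicates 1 and 2 lay just under them, and KO replicates 3 and 4 were lower. The difference was -0.69 ± 0.31, or 1.61-fold lower, with an unadjusted p of 0.0572 in limma and 3 of 35 splits as extreme in an exact two-sided permutation test (p = 0.0857). Leaving out KO replicate 1 or KO replicate 2 gave an unadjusted p of 0.0381 or 0.0396 in limma, and leaving out each other array gave 0.0867 (WT replicate 2) to 0.14 (WT replicate 1), with differences from -0.83 to -0.47 over the 7 omissions. The difference was -0.27 on the 4 arrays left without WT replicate 3, KO replicate 3 and KO replicate 4 (unadjusted p = 0.33 in limma). The signals of the 2 other β subunit genes measured were 4.16 to 4.76 (Cacnb4) and 4.93 to 6.39 (Cacnb1), with overlap between groups and differences of 0.16 for both.

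The L-type pores Cacna1c and Cacna1d, which carry most of the calcium current of the mouse β-cell, were also lower in the KO mean but overlapped between groups. Cacna1c was 10.001, 9.91 and 11.24 in WT and 9.05, 9.81, 9.04 and 10.83 in KO, a difference of -0.70 ± 0.53 (unadjusted p = 0.226 in limma). Cacna1d was 10.20, 10.06 and 10.32 in WT and 9.79, 9.97, 8.84 and 10.27 in KO, a difference of -0.48 ± 0.35 (unadjusted p = 0.213 in limma). For both, as for Cacnb2, KO lay below WT in each of the 3 pairs of arrays with equal replicate numbers, and KO replicate 4, which has no partner, lay within the WT range for both pores. Blocking on the replicate number leaves out KO replicate 4 and gave Cacna1c a difference of -1.08 (unadjusted p = 0.0605 in limma), and leaving out that array with no block gave -1.08 too (unadjusted p = 0.0417). Without WT replicate 3 the Cacna1c difference was -0.27 (unadjusted p = 0.627), and without KO replicate 1 or KO replicate 3 it was -0.49. The Cacna1d difference rested largely on KO replicate 3, and was -0.18 without it (unadjusted p = 0.443). With the block 0 of the 66 genes had an unadjusted p below 0.05 in limma, against 2.61% of all clusters (1.32% higher and 1.29% lower in KO). Below WT in all 3 pairs were 9 of the 66 genes, against 12.3% of all clusters, and above WT in all 3 were 5, against 12.2%.

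Cacna2d1, the α2δ subunit of these channels, had the same mean in both groups. It was 9.38, 9.31 and 9.04 in WT and 9.33, 9.57, 8.97 and 9.09 in KO, with a difference of 0.00 ± 0.23. Of the other pores, Cacna1a, which forms P/Q-type channels, was 10.54, 9.81 and 8.06 in WT and 9.97, 10.88, 9.08 and 9.15 in KO. Its difference of 0.30 ± 0.67 was smaller than the range of 2.82 over the 7 arrays, and it was -0.40 without WT replicate 3. The R-type pore Cacna1e was 4.13, 4.07 and 5.16 in WT and between 3.87 and 4.73 in KO (difference -0.18 ± 0.35). The T-type pores Cacna1g and Cacna1h, which open at low voltage, differed by -0.02 ± 0.22 and -0.04 ± 0.30. The remaining pore-forming and α2δ genes differed by -0.05 to 0.56, and none had an unadjusted p below 0.2 in limma.

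**Figure D3:**
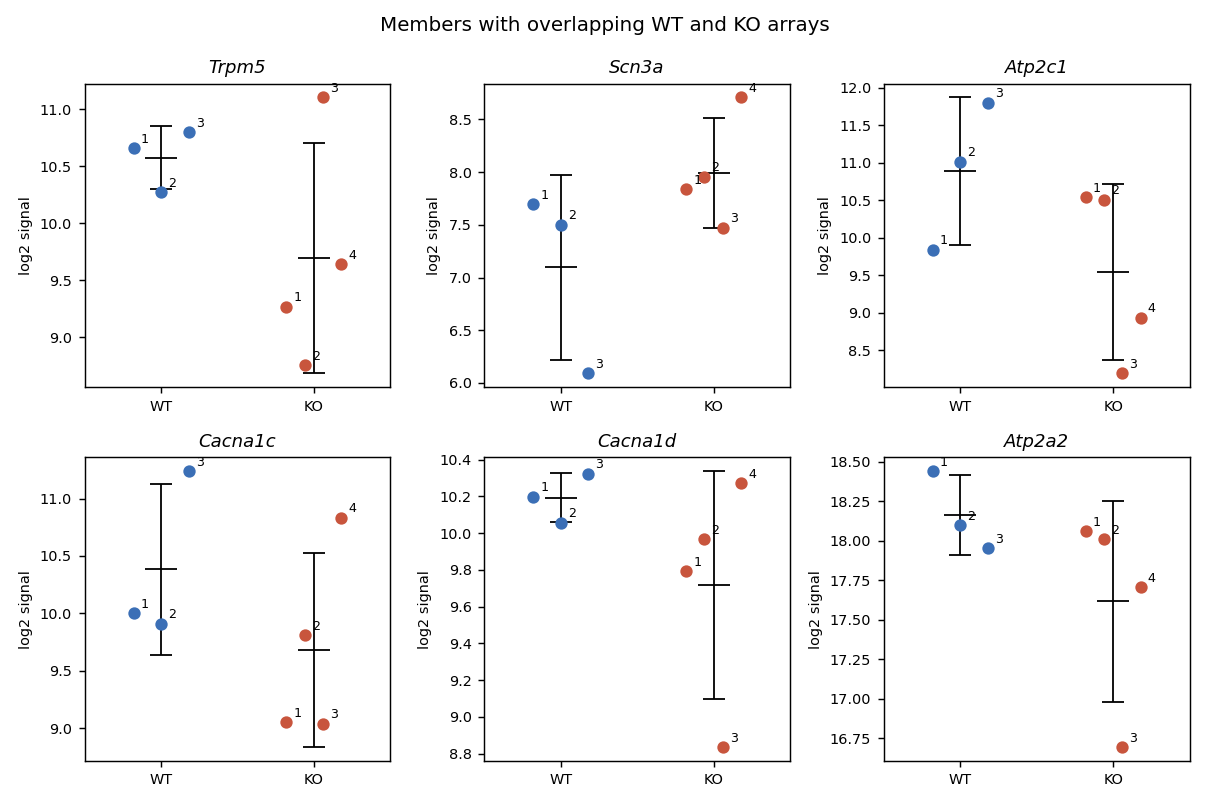
Log2 signal of Trpm5, Scn3a, Atp2c1, Cacna1c, Cacna1d and Atp2a2 on each of the 7 arrays. Points are arrays numbered by replicate, and bars give the mean and SD of 3 WT and 4 KO arrays; KO replicate 3 had the highest Trpm5 signal (11.10) and the lowest signal of the 7 arrays for Atp2c1 (8.19), Cacna1c (9.04), Cacna1d (8.84) and Atp2a2 (16.69).

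The γ subunits are tetraspan proteins, several of which act in neurons as partners of AMPA-type glutamate receptors. Cacng7 was 3.91, 3.85 and 4.41 in WT and 3.70, 3.46, 3.49 and 3.48 in KO. Its groups did not overlap, and the WT array nearest to KO was 0.15 above it. The difference was -0.53 ± 0.22, or 1.44-fold lower (unadjusted p = 0.0445 in limma, adjusted p = 1), and the split by genotype was the most extreme of 35 in the exact permutation test (p = 0.0286, the smallest possible). That permutation p restates the lack of overlap by which the gene was named. With the replicate block the unadjusted p in limma was 0.107. Leaving out single arrays kept an unadjusted p below 0.05 in limma only without WT replicate 2 (0.0475), and without WT replicate 3 the difference was -0.35 (unadjusted p = 0.157). The mean signal of 7 neuronal marker genes was also highest on WT replicate 3, at 6.33 against 4.59 to 5.01 elsewhere. So was that of 5 glial genes, at 5.33 against 4.34 to 4.71. These means rested on Nefl, Nefm, Prph and Gap43 and on Sox10, S100b and Mbp, each highest on that array. Rbfox3, Chat, Slc17a6 and Gfap were not highest there, and Cdh19 was lowest there. The mean of 9 mesenchymal and smooth muscle genes was highest there as well, at 6.08 against 4.82 to 5.86 elsewhere. That mean rested largely on Dcn, at 10.15 on WT replicate 3. Col1a2 and Tagln were also highest there, while Col1a1, Col3a1, Pdgfrb, Acta2, Myh11 and Cnn1 were highest on KO arrays. The part of these genes in the Cacng7 signal was not tested.

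Cacng6, which resembles the γ subunit of skeletal muscle, was 5.04, 5.42 and 4.96 in WT and 4.78, 4.80, 4.50 and 4.81 in KO. The groups did not overlap, and the difference was -0.41 ± 0.21 (unadjusted p = 0.0905 in limma; exact permutation p = 0.0286). Cacng4, a γ subunit described in β-cells, was 5.46, 5.88 and 5.10 in WT and 6.07, 5.93, 4.63 and 6.66 in KO, with a difference of 0.34 ± 0.47. Single omissions moved that difference from 0.0657 (KO replicate 4 left out) to 0.74 (KO replicate 3 left out). Cacng3, the γ gene with the brightest probe set, was between 6.06 and 7.12 in WT and between 6.32 and 6.83 in KO. Of the 8 γ genes, 3 lay below WT and 5 above.

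Sodium channels help to start the action potentials of the mouse β-cell. Scn3a, a main sodium channel gene of rodent islets, was 7.70, 7.50 and 6.09 in WT and 7.84, 7.96, 7.47 and 8.71 in KO. It had the largest positive difference of the 66 genes, 0.90 ± 0.46, or 1.86-fold higher (unadjusted p = 0.089 in limma; 4 of 35 splits in the exact permutation test). The low WT array and the high KO array were WT replicate 3 and KO replicate 4, and the difference was 0.40 without the former and 0.30 on the 4 arrays left without these and KO replicate 3. Scn8a was 5.88, 6.42 and 5.99 in WT and 5.80, 5.81, 6.10 and 4.08 in KO. Its difference of -0.65 ± 0.49 (unadjusted p = 0.223 in limma) rested largely on KO replicate 4, and was -0.20 without it. Scn11a, a channel of sensory neurons, was 4.08, 3.78 and 4.27 in WT and 3.64, 3.76, 3.67 and 3.60 in KO. The groups were parted by 0.013 on the log2 scale, the difference was -0.38 ± 0.20 (unadjusted p = 0.102 in limma; exact permutation p = 0.0286), and the highest WT value was again on WT replicate 3. Of the 7 pore-forming genes 2 were above WT and 5 below, and the 3 β subunit genes differed by -0.16 to 0.04, with Scn4b, the one with the brightest probe set, at 5.04 to 5.12 in WT and 4.73 to 5.25 in KO.

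Among the TRP channels, Trpm5 had the largest difference. Trpm5 is a sodium-permeable channel opened by intracellular calcium that adds to glucose-induced depolarisation in mouse β-cells. Its signal was 10.66, 10.27 and 10.80 in WT and 9.27, 8.75, 11.10 and 9.64 in KO. KO replicates 1, 2 and 4 lay below every WT array, and KO replicate 3 lay above them all. The difference over all 7 arrays was -0.88 ± 0.53, or 1.84-fold lower (unadjusted p = 0.135 in limma; 8 of 35 splits in the exact permutation test, p = 0.229). It was -1.35 without KO replicate 3 (unadjusted p = 0.00335 in limma) and -1.45 on the 4 arrays left without WT replicate 3, KO replicate 3 and KO replicate 4 (unadjusted p = 0.00334, adjusted p = 0.9998). Over all single-array omissions the difference ran from -1.35 to -0.57, and the omission of KO replicate 3 alone gave an unadjusted p below 0.05.

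Trpm4, the closest relative of Trpm5, was 6.59, 7.47 and 7.03 in WT and 7.14, 6.67, 6.34 and 7.44 in KO, a difference of -0.13 ± 0.34. Trpm7, a channel fused to a kinase that admits magnesium and calcium, was 11.88, 12.63 and 9.71 in WT and 11.39, 11.90, 11.53 and 12.36 in KO. Its range of 2.92 over the arrays was set by WT replicate 3, and its difference of 0.39 ± 0.66 became -0.46 without that array. Trpm2, opened by ADP-ribose, lay between 4.04 and 4.52 in WT and between 3.96 and 4.83 in KO. Of the 8 TRPM genes 6 were below WT.

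Trpc1, a subunit of receptor-operated cation channels, was 9.74, 9.77 and 10.34 in WT and 9.63, 10.88, 9.16 and 9.86 in KO, with a difference of -0.07 ± 0.41. Trpv2, a calcium-permeable channel that responds to stretch, was 4.05, 4.10 and 5.15 in WT and 4.73, 4.64, 4.93 and 5.04 in KO. Every KO array was above the first and second WT arrays and below the third, and the difference of 0.41 ± 0.31 (unadjusted p = 0.233 in limma) was 0.77 without WT replicate 3 (unadjusted p = 0.0148) and 0.21 and 0.24 without WT replicates 1 and 2. Trpv1, the capsaicin receptor, lay at percentile 3.40 of the mean signal and differed by -0.04 ± 0.31, and Trpa1, the receptor for mustard oil, differed by 0.24 ± 0.30. All 6 TRPV genes and Trpa1 were below the median signal of the array. The other TRPC genes differed by -0.12 to 0.18.

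The 3 release channel genes measured were above WT in the mean, with overlap between groups for each. Itpr2, an IP3 receptor, was 5.78, 6.40 and 6.14 in WT and 6.88, 6.19, 6.62 and 5.29 in KO, a difference of 0.14 ± 0.40. Ryr2, the cardiac ryanodine receptor that β-cells also express, was 4.49, 4.71 and 4.52 in WT and 4.50, 4.59, 5.46 and 4.19 in KO, a difference of 0.11 ± 0.32. Ryr1, the skeletal muscle form, was highest on KO replicate 3 as well, at 5.25 against 3.999 to 4.34 on the other 6 arrays.

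The 3 SERCA genes, which load the endoplasmic reticulum with calcium, were all below WT in the mean. The 3 PMCA genes measured, which expel calcium from the cell, were all above. Those signs were not all stable, since Atp2a3 and Atp2b2 turned when single arrays were left out. Atp2a2, the widely expressed SERCA, was 18.44, 18.10 and 17.95 in WT and 18.06, 18.01, 16.69 and 17.70 in KO. The KO values of replicates 1 and 2 fell inside the WT range, replicate 4 lay below it and replicate 3 more so, and the difference was -0.55 ± 0.37 (unadjusted p = 0.175 in limma). It was -0.24 without KO replicate 3. No array stood within 0.15 of the upper limit of the platform for any of the 66 genes.

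Atp2a3, a SERCA that β-cells express beside Atp2a2, was 11.24, 9.71 and 12.44 in WT and 10.86, 10.62, 10.07 and 11.11 in KO, a difference of -0.46 ± 0.61. The 3 WT arrays spanned a wider range than the KO arrays, and the difference was 0.19 without WT replicate 3 and -1.17 without WT replicate 2 (unadjusted p = 0.0362 in limma). Atp2a1, the SERCA of fast skeletal muscle, was 4.89, 4.61 and 5.03 in WT and 4.53, 4.38, 4.39 and 3.93 in KO. The groups did not overlap, the difference was -0.54 ± 0.23, or 1.45-fold lower, and the unadjusted p in limma was 0.05005 (exact permutation p = 0.0286). The unadjusted p was 0.049 without WT replicate 2 and 0.0474 without KO replicate 1, and 0.0631 (KO replicate 3) to 0.142 (WT replicate 3) without each of the others. The mean of 8 other skeletal muscle genes was 4.48 to 4.65 in WT and 4.44 to 4.76 in KO, with gene means between 3.31 and 6.43, and its groups overlapped.

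Atp2b1, the widely expressed PMCA, was the one gene of the 66 with every KO array above every WT array. It was 9.21, 9.98 and 9.88 in WT and 10.16, 10.08, 10.29 and 10.02 in KO. The KO arrays lay within 0.273 of each other, the lowest of them 0.043 above the second WT array, and WT replicate 1 was the lowest of all. The difference was 0.45 ± 0.25, or 1.37-fold higher (unadjusted p = 0.107 in limma; exact permutation p = 0.0286), and 0.21 without WT replicate 1. Atp2b2, an isoform with fast kinetics, was 7.61, 6.997 and 7.82 in WT and 8.09, 7.19, 7.999 and 6.94 in KO, a difference of 0.08 ± 0.37. Atp2b3 differed by 0.42 ± 0.30 with overlap between groups.

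Atp2c1, the SPCA that fills the Golgi with calcium and manganese, had both the largest difference in size and the widest range of the 66 genes. It was 9.84, 11.02 and 11.80 in WT and 10.54, 10.51, 8.19 and 8.93 in KO. KO replicates 1 and 2 lay between the first and second WT arrays, and KO replicates 3 and 4 lay below all others. The difference was -1.34 ± 0.71, or 2.54-fold lower (unadjusted p = 0.097 in limma; 7 of 35 splits in the exact permutation test), with an unadjusted p of 0.0454 without WT replicate 1. It was -0.88 without WT replicate 3, -0.89 without KO replicate 3 and 0.10 on the 4 arrays left without WT replicate 3, KO replicate 3 and KO replicate 4. The pairs of equal number differed by 0.70, -0.51 and -3.61. Atp2c2 lay at percentile 2.53 of the mean signal and differed by -0.17 ± 0.30.

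**Figure D4:**
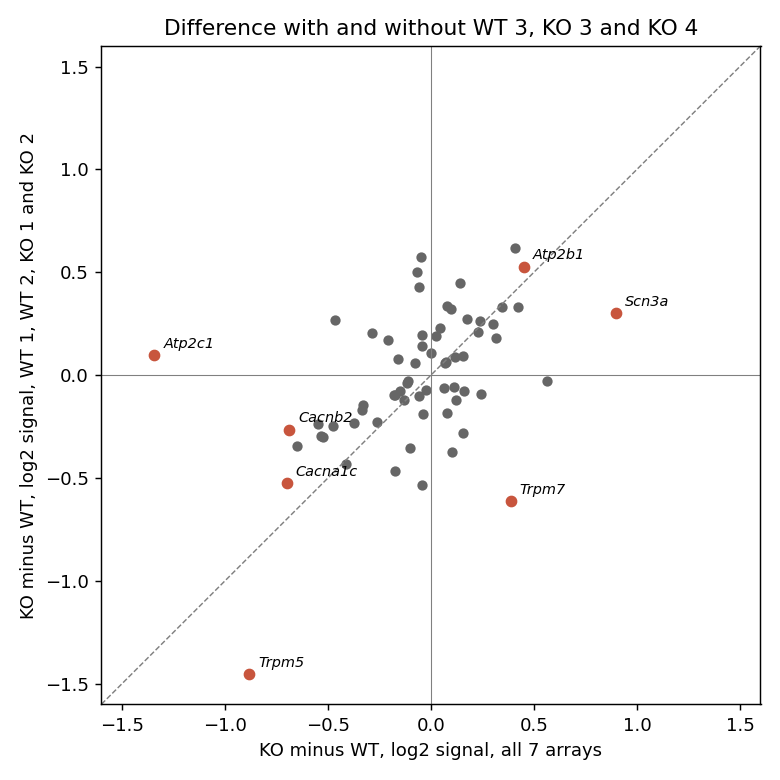
Difference between KO and WT over all 7 arrays (x axis, log2) against the difference on the 4 arrays left without WT replicate 3, KO replicate 3 and KO replicate 4 (y axis, log2), 1 point per gene. The sign was the same for 45 of the 66 genes (68.2%), against 67.7% of all clusters. Trpm5 lies at -0.88 and -1.45, and Atp2c1 at -1.34 and 0.10.

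Single arrays decided the sign of many of these differences. The sign held when each array was left out in turn for 29 of the 66 genes (43.9%), against 48.3% of all clusters. WT replicate 3 or KO replicate 3 gave the highest or the lowest value for 26 (39.4%) and 28 (42.4%) of the 66 genes, against 36.1% and 41.8% of all clusters, and KO replicate 4 for 22 (33.3%), against 38.8%. The other 4 arrays did so for 10 to 17 genes each, against 18.8% to 24.3% of all clusters. On those 4 arrays alone, a choice made after the values were seen, 21 genes did not overlap between groups, against 28.1% of all clusters for so few arrays, and 2 had an unadjusted p below 0.05 in limma, against 2.22%. Of the 66 genes, 41 lay below the median signal of the array. Of the 12 above the 75th percentile, 4 were above and 8 below WT with a median difference of -0.47, against -0.02 for all clusters above it, and 0 of the 12 had an unadjusted p below 0.05. This too depended on the arrays. On the 4 arrays Trpc1 (0.50), Atp2a3 (0.27) and Atp2c1 (0.10) turned positive and Trpm7 (-0.61) turned negative. Of those that stayed below WT, Trpm5 grew to -1.45, while Cacna1c, Cacna1d, Cacnb2 and Atp2a2 shrank to between -0.53 and -0.24.

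**Figure D5:**
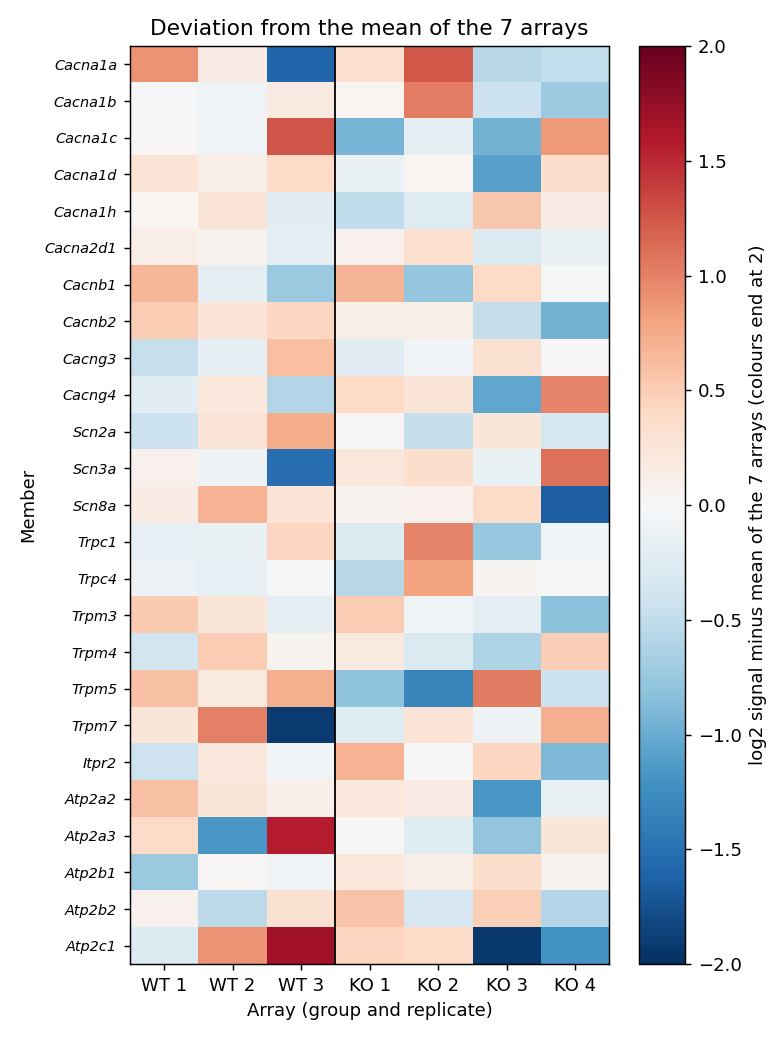
Deviation of each array from the gene's mean over the 7 arrays (log2, colour) for the 25 genes at or above the median signal. Columns are arrays and rows are genes; among all 66 genes, a signal more than 1 log2 unit from the median of the other 6 arrays was found for 8 genes on WT replicate 3, 7 on KO replicate 3, 5 on KO replicate 4 and 1 to 4 on each other array.

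Lists of partner genes in calcium handling gave a like picture. Of 104 genes listed for store-operated entry, exchangers, mitochondrial uptake, calcium binding, release from the endoplasmic reticulum and lysosome, channel regulators and calcium-dependent kinases and phosphatases, 96 were measured under a name. The KO mean was above WT for 42 and below for 54, with a median difference of -0.03. In limma a single gene of the 96, lower in KO, passed an unadjusted p of 0.05, against 2.18% of all clusters, and 4 did not overlap between groups, against 3.93%. That gene was Ppp3cb, a catalytic subunit of the calcium-dependent phosphatase calcineurin, at 10.11, 10.32 and 10.14 in WT and 10.07, 9.27, 9.70 and 9.16 in KO. The first KO array stood just under the lowest WT array and the others further below. The difference was -0.64 ± 0.27 (unadjusted p = 0.0477 in limma, adjusted p = 1), and the unadjusted p was 0.14 with the block. With the block the single gene of the 96 below 0.05 was instead Fkbp1b, which binds and steadies ryanodine receptors, at -0.81 (unadjusted p = 0.0302 in limma). It was 9.46, 9.69 and 10.62 in WT and 9.13, 8.67, 9.54 and 9.91 in KO, below WT in all 3 pairs, and differed by -0.61 ± 0.40 with no block. The other genes without overlap, chosen after their values were seen, were Smdt1, the small essential subunit of the mitochondrial calcium uniporter (-0.99 ± 0.48), the calsequestrin gene Casq2 (-0.25 ± 0.18) and the exchanger gene Slc24a1 (0.37 ± 0.21). Smdt1 was 15.42, 15.47 and 16.99 in WT and 15.26, 15.31, 14.09 and 15.22 in KO, so its size rested on the third replicate of each group.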

How the data were processed

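RNA of sorted β-cells was hybridised to Affymetrix Clariom S arrays, 3 WT and 4 KO. The authors deposited 1 log2 value for each of 22198 transcript clusters and array. Affymetrix Expression Console and MAS5 appear in the processing notes and GeneSpring in the methods, and which gave the values is not given in the sources that were used. The values ran from 2.24 to 19.93, the upper limit. Depth has no meaning for arrays, and their number limits the precision.

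Array medians of 5.52 to 5.66 differed by more than 0.1, so values were quantile normalized. KO was tested against WT by limma (version 3.58.1, R 4.3.3) without covariates and two-sided, and p-values were adjusted by Benjamini-Hochberg over all clusters, and single genes by an exact permutation test over 35 splits. The fit was tested on simulated data. The platform annotation gave 1 symbol for 19565 transcript clusters, several for 0 and none for 2633, and all 19565 matched the RefSeq gene table. Where a symbol had several clusters that with the highest mean was kept, which was never needed for the channel and pump genes.

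Genes were named by rule if their groups did not overlap or the unadjusted p was below 0.05. The rule also took the brightest of a subfamily, those known from rodent β-cells and the 5 widest ranges. Partner genes were named if their unadjusted p was below 0.05. Outside this rule the text also gives other genes of some subfamilies (Cacnb1, Cacnb4, Ryr1, Atp2b3 and Atp2c2), the neighbours Scn2a and Cacng8, and Cacng2, which was flagged. It likewise gives the partner genes without overlap, and Fkbp1b for its p-value with the block. The genes, lists and alternatives were chosen with earlier results of these data known.

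WT and KO titles share the numbers 1 to 3. Deviations from the group means correlated at 0.16, 0.243 and 0.165 for equal numbers and at -0.181 to 0.0233 for unequal ones. All 3 exceeded 0.1 and the numbers were taken to pair the arrays, though no source says what they share. The main comparison has no block, and the fit with one takes out KO replicate 4. The permutation test over free splits ignores the pairing as well, so its p-values do not allow for it. The methods call the arrays independent biological samples, each of RNA from several animals of 1 genotype, so p-values measure the spread between pools. Other alternatives were the deposited values, median centring, cyclic loess, a filter on dim clusters, trend and robust variances, array weights, the methods' t-test, each array left out, and 4 arrays alone.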

Additional observations from a re-analysis of the deposited data

Results flagged for a closer look

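Of 66 groups of 4 KO values, 1 for each channel or pump gene, 4 held a value that stood far away, and about 3.3 (1 in 20) would do so by chance. The gap to the nearest value was 0.903 of the range for Cacng2, where KO replicate 4 was at 3.69 and the rest at 4.04 to 4.08. It was 0.904 for Cacng6, where KO replicate 3 was at 4.50 and the rest at 4.78 to 4.81. For Cacng7 it was 0.868, where KO replicate 1, the KO array nearest to WT, was at 3.70 and the rest at 3.46 to 3.49. For Scn8a it was 0.850, where KO replicate 4 was at 4.08 and the rest at 5.80 to 6.10. The γ subunit genes were dim, at percentiles 11.6 (Cacng2), 35.7 (Cacng6) and 7.71 (Cacng7) of the mean signal.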

How the results depend on the processing

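Of the 66 genes, 1 had an unadjusted p below 0.05. This number was 0 with the deposited values, with median centring or with the replicate block (against 2.61% of all clusters). It was also 0 with clusters below the 25th percentile of signal left out, a filter that removed Cacng7 itself (percentile 7.71). It was 2 with cyclic loess or with trend and robust variances, and 2 on 4 arrays (against 2.22%). The methods' t-test gave 4 (against 2.41%), and single arrays left out gave 1 to 3. Over all clusters the number was 484 in the main fit and 311 with the filter on dim clusters (fewer tested). It was 300 (without WT replicate 3) to 697 with single arrays left out. The 6 genes without overlap became 3 with the deposited values (against 3.20%) or median centring (against 3.59%). They became 21 on 4 arrays (against 28.1%) and 7 to 11 with single arrays left out, where fewer arrays make non-overlap easier. The median difference was -0.00351 with array weights and -0.0705 to -0.0188 with single arrays left out. The replicate block changed no call of a named gene of calcium handling besides those of Cacng7, Ppp3cb and Fkbp1b.

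Of 32 named genes, 15 kept their sign under every alternative and 17 turned under at least 1. Differences turned to 0.0075 (Cacna1g) and -0.0567 (Cacna2d1) with the deposited values and to -0.0717 (Cacna2d1) with median centring. With array weights Trpc1 was 0.30, Trpm7 -0.21, Trpv1 0.0881 and Atp2a3 0.00712, and with the block Trpm2 was 0.00786 and Trpv1 0.19. On 4 arrays Trpc1 was 0.50, Trpm7 -0.61, Trpv1 0.19, Ryr2 -0.0593, Atp2a3 0.27 and Atp2c1 0.10. With single arrays left out, the range was -1.17 to 0.19 for Atp2a3, -0.16 to 0.28 for Atp2b2, -0.40 to 0.83 for Cacna1a, -0.37 to 0.18 for Cacna1e, -0.13 to 0.12 for Cacna1g, -0.23 to 0.12 for Cacna1h, -0.11 to 0.0905 for Cacna2d1, -0.20 to 0.33 for Cacng3, -0.069 to 0.46 for Itpr2, -0.15 to 0.27 for Ryr2, -0.11 to 0.0671 for Scn4b, -0.40 to 0.17 for Trpc1, -0.24 to 0.0507 for Trpm2, -0.35 to 0.0902 for Trpm4, -0.46 to 0.998 for Trpm7 and -0.18 to 0.19 for Trpv1. The cause was not tested. With 7 arrays and no detection calls, small differences of dim genes could not be measured.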

Other observations

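Some of the channel genes are next to each other in RefSeq gene order, without another gene between them. On chromosome 2, Scn3a and Scn2a differed by 0.90 and -0.33, and on chromosome 7 Cacng7, Cacng8 and Cacng6 by -0.53, 0.07 and -0.41. Scn2a was 6.62, 7.30 and 7.78 in WT and 7.06, 6.57, 7.28 and 6.70 in KO, so on WT replicate 3 it was highest where Scn3a was lowest. Cacng8 was 4.32, 4.68 and 4.69 in WT and 4.74, 4.39, 4.04 and 5.36 in KO, with overlap between groups.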
